A study of Mus musculus with 71 samples.

Results

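A set of 5 probes of a mouse bead array, ILMN_1228141 (Neurod1), ILMN_2925923 (Vgf), ILMN_2620406 (Nptx2), ILMN_2648189 (Klf10) and ILMN_2719324 (Sobp), was followed across cerebellum of mice fed different diets. They are 5 of the 25697 probes of the deposited table. They were picked by probe ID because they differed with high-fat feeding or resveratrol in Csb mice, or with high-fat feeding in WT mice, so those differences are given here as description, without a test. Chosen by these values were Neurod1 and Vgf (high-fat diet in Csb), Nptx2 (resveratrol in Csb) and Klf10 (high-fat diet in WT), and which of these contrasts picked Sobp was not settled. All 5 probes were kept in the diet arm, where a probe had to be detected, with a detection p under 0.01, on at least 4 arrays, and 4 of them were kept in the injection arm, where at least 3 arrays were required.

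The array was the Illumina MouseRef-8 v2, read in 1 colour, and the animals were male C57BL/6 mice, either Csbm/m (Csb, homozygous for a mutation of the DNA repair protein CSB, which is lost in Cockayne syndrome) or wild type (WT). In the diet arm, feeding of both genotypes began at an age of 4 months and lasted 8 months, and cerebellum was taken at 1 year. The high-fat diet (HFD) drew 60% of its calories from fat, mostly hydrogenated coconut oil, and was given to 7 Csb and 4 WT samples. Caloric restriction (CR) of 40% was given to 6 Csb and 4 WT samples, and resveratrol (Resv), a plant polyphenol, at 100 mg/kg chow to 6 Csb and 5 WT samples. The standard AIN-93G diet (SD, 17% of kcal from fat), the base of the CR and Resv diets, was eaten by 6 Csb and 4 WT samples; after a ± value or beside the spread of a probe, SD stands for the standard deviation instead. In the injection arm, old (18 months) and young (4 months) mice were injected intraperitoneally for 1 week with NR (nicotinamide riboside, from which cells make NAD+) at 500 mg/kg/day or with saline. It held 4 Csb old NR, 3 Csb old saline, 3 Csb young NR and 3 Csb young saline samples, and 5 WT old NR, 3 WT old saline, 4 WT young NR and 4 WT young saline samples. The labels number the replicates without saying that each came from its own animal, so the spread between arrays may be in part technical. The gene that carries the Csb mutation was not analysed here, so the genotype labels were not checked against it.

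The 5 genes belong to different parts of neuronal biology. Neurod1 encodes a basic helix-loop-helix transcription factor that binds E-boxes (CANNTG) and is needed for the birth and upkeep of cerebellar granule neurons, the most numerous neurons of the brain. Vgf, the precursor of secreted neuropeptides, and Nptx2, a secreted pentraxin that clusters AMPA receptors at excitatory synapses, are both induced by neuronal activity and neurotrophins. Klf10 encodes a zinc-finger repressor first found as a gene induced by TGF-beta, and later studied as a clock-controlled gene of the liver. Sobp encodes a zinc-finger protein named for its Drosophila orthologue, which binds the Sine oculis homeodomain protein, and in mice it is required for the development of the cochlea.

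On GRCm38.p6, Neurod1 spans chr2:79452637-79456636, Vgf chr5:137025301-137033351, Nptx2 chr5:144545887-144557478, Klf10 chr15:38291464-38300711 and Sobp chr10:43002488-43183139. Vgf and Nptx2 therefore lie on the same chromosome. Promoter windows of 300 bases, from 250 before to 50 after a listed start site, were available from RefSeq (GRCm38.p6) for 2 of the 5 genes. They are shown because Neurod1 is the transcription factor among the members and E-boxes are the sites its family binds. The start site is 79456636 for Neurod1, at the edge of the span above. For Sobp it is 43174530, which lies inside the span and not at its edge. The windows lie at chr2:79456587-79456886 for Neurod1 and chr10:43174481-43174780 for Sobp, both on the minus strand, and are printed 5′ to 3′ with E-box letters (CANNTG, its own reverse complement, so 1 search covers both strands) in capitals.
Neurod1: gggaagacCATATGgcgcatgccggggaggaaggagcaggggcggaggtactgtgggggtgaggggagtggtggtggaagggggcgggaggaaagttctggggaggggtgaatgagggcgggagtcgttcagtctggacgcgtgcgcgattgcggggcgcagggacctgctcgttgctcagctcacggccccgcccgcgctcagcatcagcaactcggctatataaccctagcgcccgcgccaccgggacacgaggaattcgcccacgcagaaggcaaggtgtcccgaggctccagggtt
Sobp: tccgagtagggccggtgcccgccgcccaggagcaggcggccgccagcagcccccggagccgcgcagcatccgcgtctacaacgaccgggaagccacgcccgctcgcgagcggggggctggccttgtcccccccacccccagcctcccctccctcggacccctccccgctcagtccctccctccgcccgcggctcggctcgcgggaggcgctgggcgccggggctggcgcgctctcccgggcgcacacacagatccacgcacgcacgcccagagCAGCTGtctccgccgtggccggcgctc
Each window held 1 E-box, CATATG before the Neurod1 start site and CAGCTG after the start site used for Sobp. Of the 32851 promoters listed, 72.3% held at least 1. The GC content was 66.7% for Neurod1 and 78.3% for Sobp, against a median of 52.7% over all promoters. These letters are a description of the windows, and no binding was measured.

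Of the 42 diet-arm arrays 4 stood apart, namely Csb SD replicates 1 and 3, Csb CR replicate 6 and WT SD replicate 1. They did not detect Gabra6, the GABA-A receptor subunit that defines cerebellar granule cells. On them the Purkinje cell marker Pcp2 measured 6.14 to 9.01 (all levels are log2 of normalized intensity), against 12.42 to 14.46 on the other 38, and the granule cell gene Cbln1 measured 10.92 to 11.52, against 12.75 to 14.9. Etv1, another granule cell gene, measured 5.38 to 7.84 on them, against 7.2 to 10.71 on the others. Among the other 38, Pcp2 was lowest on Csb CR replicate 4 (12.42) and Csb SD replicate 4 (12.71). It was 13.47 or more on every HFD and Resv array, so the 38 arrays still differ in this marker. The mean level of these 4 markers ranged from 11.63 to 12.63 in Csb HFD, 7.7 to 12.18 in Csb CR, 11.76 to 12.44 in Csb Resv and 7.5 to 11.77 in Csb SD. In WT it ranged from 11.94 to 12.54 in HFD, 11.97 to 12.53 in CR, 11.73 to 12.54 in Resv and 7.45 to 12.1 in SD. The probe for Calb1, another Purkinje cell marker, was detected on 0 of 42 arrays. Gabra6 was detected on all injection-arm arrays (0 without it). Since all HFD and Resv arrays detect Gabra6 while 3 of the SD arrays do not, the diet differences of the members are given with all arrays and again without these 4. Whether these 4 arrays hold cerebellum, as they are labelled, was not tested, and they stayed in all fits unless said otherwise. In bulk tissue, fewer cells of a type and less RNA per cell cannot be told apart.

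Arrays also differed between groups in background, the mean of the negative-control signal as estimated from the detection p-values, and in brightness, the highest raw intensity of the array. Background averaged 81.4 in Csb HFD, 86.2 in Csb CR, 76.2 in Csb Resv and 87.6 in Csb SD, and 63.2 in WT HFD, 67.2 in WT CR, 63.8 in WT Resv and 73.5 in WT SD. Mean brightness was 38762, 44299, 36084 and 44213 in the Csb HFD, CR, Resv and SD groups, and 33929, 33902, 41357 and 50457 in the WT HFD, CR, Resv and SD groups. In both genotypes the HFD and Resv arrays were thus on average dimmer, and had a lower background, than the SD arrays. Brightness was at least 50054 on WT SD arrays and at most 46882 in the other WT groups. Background was at least 71.8 in WT SD, against at most 65.1 in WT HFD and 67 in WT Resv. On each diet it was also higher on every Csb array than on every WT array. Where such ranges do not overlap, a fit with the measure as a covariate cannot tell it apart from diet or genotype. On average 49.9% to 54.7% of probes were detected in a diet group.

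**Figure D1:**
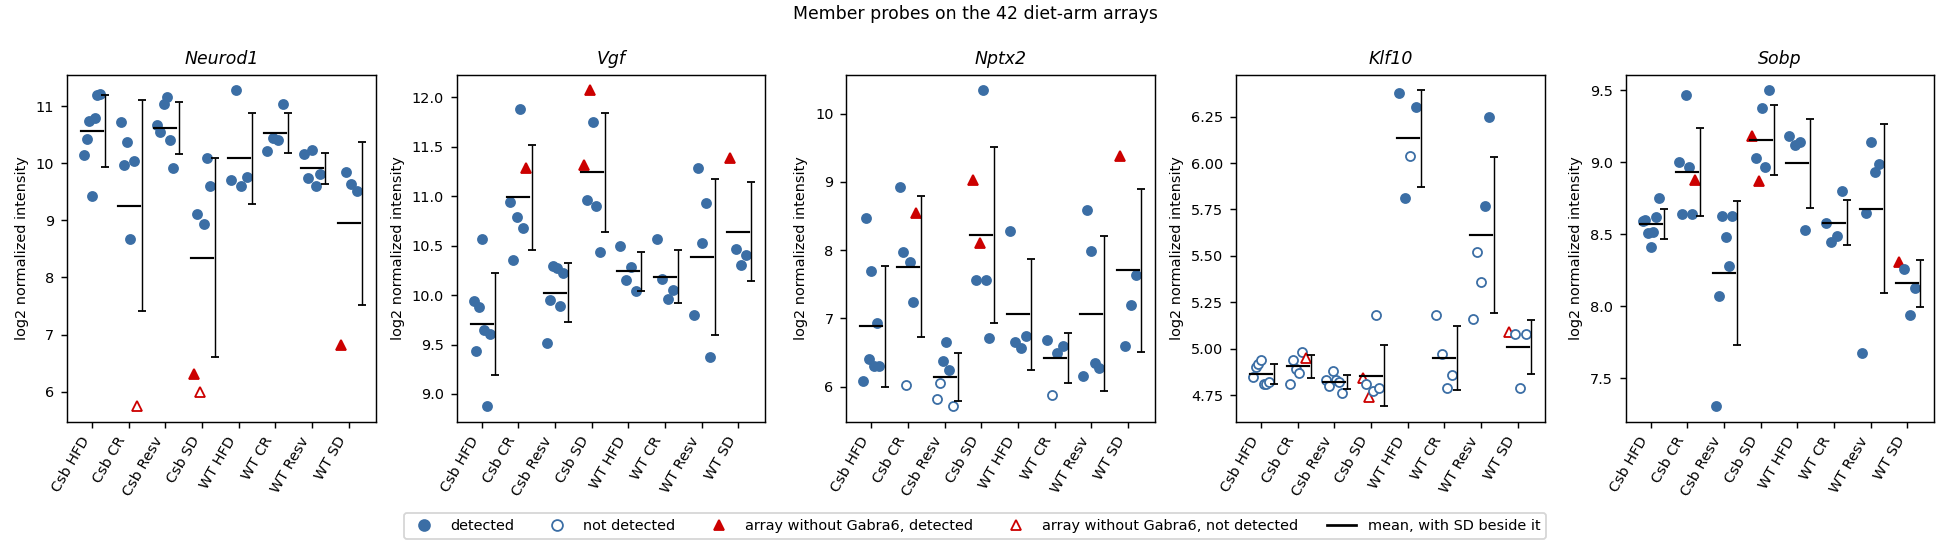
Log2 normalized intensity of the 5 member probes on each of the 42 diet-arm arrays, by group, with Csb groups left of WT groups and each diet left of SD. Filled points are detected and open points not detected, triangles are the 4 arrays that do not detect Gabra6, and the line and bar are the group mean and SD; the 4 triangles of Neurod1 lie between 5.75 and 6.82, below every other array.

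Neurod1 was the highest on average in Csb Resv and Csb HFD mice and the lowest in Csb SD mice. In Csb HFD it measured 9.43 at the lowest, 10.75 in the median and 11.22 at the highest of 7 arrays, and in Csb Resv 9.91, 10.61 and 11.16 over 6 arrays. In Csb SD the 6 arrays measured 6.31, 9.11, 6, 8.94, 10.1 and 9.6, the third of them not detected. Of the HFD arrays 6 of 7 lay above every SD array, and of the Resv arrays 5 of 6, so that both groups overlapped with SD through 1 array each. The mean was 10.57 ± 0.63 in Csb HFD (SD, n = 7) and 8.34 ± 1.75 in Csb SD (SD, n = 6), a log2 difference of 2.22 (SE 0.61), or 4.67-fold. Against the same SD arrays, Csb Resv averaged 10.62 ± 0.45 (SD, n = 6), a difference of 2.28 (SE 0.63), or 4.85-fold. Without the 4 arrays that lack Gabra6, Csb SD averaged 9.44 ± 0.52 (SD, n = 4), and the differences were 1.13 (SE 0.33) for HFD and 1.18 (SE 0.34) for Resv. The Csb CR arrays measured 10.73, 9.97, 10.38, 8.68, 10.04 and 5.75, the last not detected, and differed from Csb SD by 0.91 (SE 0.63), or 0.52 without the 4 arrays.

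In WT mice, whose arrays did not choose Neurod1, its differences under CR and Resv were tested, over all 14883 probes kept. The WT HFD contrast chose another member and is given without a test, and the WT SD arrays of the tests are part of that contrast. WT HFD arrays measured 9.71, 11.28, 9.61 and 9.76, WT CR arrays 10.22, 10.45, 10.41 and 11.04, and WT Resv arrays 10.16, 9.75, 10.24, 9.61 and 9.81, against 6.82, 9.84, 9.64 and 9.51 in WT SD. All 4 CR arrays lay above all SD arrays, while the HFD and Resv groups overlapped with SD. The differences from SD were 1.13 (SE 0.77) for HFD, 1.58 (SE 0.77, adjusted p = 0.323) for CR and 0.96 (SE 0.73, adjusted p = 0.741) for Resv, by limma with Benjamini-Hochberg adjustment. Neither test passed an adjusted p of 0.05. With array background as a covariate the 3 differences were -0.07, 0.85 and -0.17, so that those of HFD and Resv changed sign. Without WT SD replicate 1, the WT array that lacks Gabra6, the 3 differences were 0.42, 0.87 and 0.25, since the remaining WT SD arrays averaged 9.66 ± 0.17 (SD, n = 3). The 95% interval of the HFD difference over all arrays ran from -0.42 to 2.69, which includes the Csb value of 2.22.

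Vgf was lower in Csb mice on HFD and Resv than on SD. Its lowest, median and highest levels were 8.88, 9.65 and 10.57 in Csb HFD, 9.52, 10.08 and 10.29 in Csb Resv, and 10.44, 11.14 and 12.07 in Csb SD. The Resv and SD ranges did not overlap, and the HFD and SD ranges overlapped only slightly, between 10.44 and 10.57. The difference was -1.53 (SE 0.27; 2.89-fold lower) for HFD and -1.22 (SE 0.28; 2.33-fold lower) for Resv, and -1.31 and -0.99 without the 4 arrays. Csb CR stood close to Csb SD, at 10.35, 10.86 and 11.88 for its lowest, median and highest array, a difference of -0.25 (SE 0.28), or -0.09 without the 4 arrays. In WT mice the HFD arrays measured 10.5, 10.15, 10.28 and 10.04, the CR arrays 10.57, 10.16, 9.96 and 10.05, and the Resv arrays 9.8, 11.28, 10.53, 10.93 and 9.37, against 11.39, 10.47, 10.3 and 10.41 in WT SD. The highest WT SD value is that of the array lacking Gabra6. The WT differences were -0.40 for HFD, -0.46 (adjusted p = 0.558) for CR and -0.26 (adjusted p = 0.848) for Resv by limma, and -0.15, -0.21 and -0.01 without that array. With array weights, which let an array count by how well it follows its group, the Resv difference was 0.17.

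Nptx2 was lowest in Csb Resv mice, where 3 of 6 arrays detected it. Its lowest, median and highest levels were 5.72, 6.14 and 6.65 in Csb Resv, 6.09, 6.4 and 8.47 in Csb HFD, and 6.72, 7.84 and 10.34 in Csb SD. The Csb Resv arrays all lay below the Csb SD arrays, with a difference of -2.08 (SE 0.52; 4.23-fold lower), or -1.91 without the 4 arrays. For Csb HFD the difference was -1.34 (SE 0.50), or -1.17 without the 4 arrays, with overlapping groups, and for Csb CR it was -0.46 (SE 0.52), or -0.45 without the 4 arrays and 0.03 with array weights, with 5 of 6 arrays detected. Leaving out only Csb SD replicate 4, the highest array, gave -1.66 for Csb Resv, -0.92 for Csb HFD and -0.04 for Csb CR. In WT the HFD arrays measured 8.28, 6.65, 6.57 and 6.75, the CR arrays 6.69, 5.88 (not detected), 6.49 and 6.6, and the Resv arrays 6.15, 8.59, 7.99, 6.35 and 6.28, against 9.38, 6.6, 7.2 and 7.64 in WT SD. Each WT diet group overlapped with WT SD. The WT differences were -0.65 for HFD, -1.30 (adjusted p = 0.33) for CR and -0.64 (adjusted p = 0.788) for Resv by limma, and -0.09, -0.74 and -0.08 without WT SD replicate 1. The HFD difference was 0.44 (SE 1.07) with brightness as a covariate, and that of Resv 0.18 (SE 0.52) with array weights.

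Sobp, measured at 8.41, 8.59 and 8.75 (lowest, median, highest) in Csb HFD and at 7.31, 8.38 and 8.63 in Csb Resv, was higher in Csb SD, at 8.87, 9.11 and 9.5. Neither group overlapped with Csb SD. The differences were -0.58 (SE 0.18; 1.5-fold lower) for HFD and -0.92 (SE 0.19; 1.89-fold lower) for Resv, and -0.65 and -0.99 without the 4 arrays. Csb CR, at 8.64, 8.92 and 9.47, overlapped with SD and differed by -0.22 (SE 0.19), or -0.28 without the 4 arrays. In WT mice the order was the other way round. WT HFD arrays measured 9.18, 9.12, 9.14 and 8.53 and WT CR arrays 8.58, 8.45, 8.49 and 8.8, against 8.31, 8.26, 7.94 and 8.13 in WT SD, so that every HFD and CR array lay above every SD array. The WT Resv arrays measured 7.68, 8.65, 9.14, 8.93 and 8.99, 4 of 5 of them above all SD arrays. The differences were 0.83 (SE 0.23) for WT HFD, 0.42 (SE 0.23) for WT CR and 0.52 (SE 0.22) for WT Resv, and 0.88, 0.47 and 0.57 without the WT array that lacks Gabra6. With array background entered as a covariate the WT differences were 0.36 (SE 0.26) for HFD, 0.13 (SE 0.23) for CR and 0.07 (SE 0.25) for Resv. With brightness they were 0.25 (SE 0.38), -0.17 (SE 0.38) and 0.21 (SE 0.27), so that the sign of the CR difference depended on the covariate.

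Sobp had 3 probes on the array. ILMN_2772728, the one next in level, showed the same directions, at -0.32 for Csb HFD, -0.83 for Csb Resv and 0.60 for WT HFD, each against SD. ILMN_2663348 averaged between 5.53 and 5.84 in the diet groups, was undetected on most arrays, and differed by -0.23, -0.28 and 0.03 in the same contrasts. On the standard diet Sobp was 2-fold higher in Csb than in WT mice, a log2 difference of 1.00 (SE 0.21) with no overlap, and ILMN_2772728 differed by 0.86. With background as a covariate the first of these was 1.55.

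In the diet arm Klf10 was detected only in WT mice, on HFD and Resv. WT HFD arrays measured 6.38, 5.81, 6.04 and 6.3, the third not detected, and WT Resv arrays 5.16, 5.52, 5.36, 5.77 and 6.25, of which the last 2 were detected. Against them stood 5.09, 5.08, 4.79 and 5.08 in WT SD and 5.18, 4.97, 4.79 and 4.86 in WT CR, all undetected. In Csb mice 0 arrays of any diet detected Klf10, with levels between 4.74 and 5.18. On normalized levels the WT HFD and WT SD groups did not overlap, at 6.13 ± 0.26 and 5.01 ± 0.14 (SD, n = 4 each). Because WT SD gives only a bound, WT HFD was at least 1.37-fold higher; the fitted difference was 1.12 (SE 0.14), and 1.15 without the 4 arrays. The bound sets the mean of WT HFD against, on each WT SD array, the higher of its dimmest well-detected probe and the Klf10 probe itself. It takes no account of the spread between arrays. Csb HFD mice, against WT HFD mice, were at least 1.03-fold lower, with a fitted difference of -1.27 (SE 0.12). No bound above 1 could be given for WT Resv against WT SD, whose fitted difference was 0.60 (SE 0.13), or 0.62 without the 4 arrays.

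Array brightness differed between WT groups that do and do not detect Klf10, but not in every case. The WT HFD arrays averaged a brightness of 33929, against 50457 in WT SD, and the 2 WT Resv arrays that detect Klf10 had a brightness of 33466 and 35390, against 44797 to 46882 on the other 3. WT CR arrays averaged 33902, about as dim as the WT HFD arrays, and did not detect Klf10. Mean background was lowest in WT HFD (63.2) and WT Resv (63.8), against 67.2 in WT CR and 73.5 in WT SD. The raw Klf10 intensities overlapped, at 90.8 to 100.9 in WT HFD and 77 to 91.4 in WT SD, and reached 100.7 in Csb CR. With brightness as a covariate, which does not overlap between WT HFD and WT SD, the WT HFD difference was 0.66 (SE 0.22). Without background correction it was 0.57 and on the deposited scores, put back on the log2 scale, 0.53. The part of brightness and background in the Klf10 difference was not tested further. Differences of Klf10 between Csb diets, and between the genotypes under CR, are not given, since all of these groups lie below background.

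**Figure D2:**
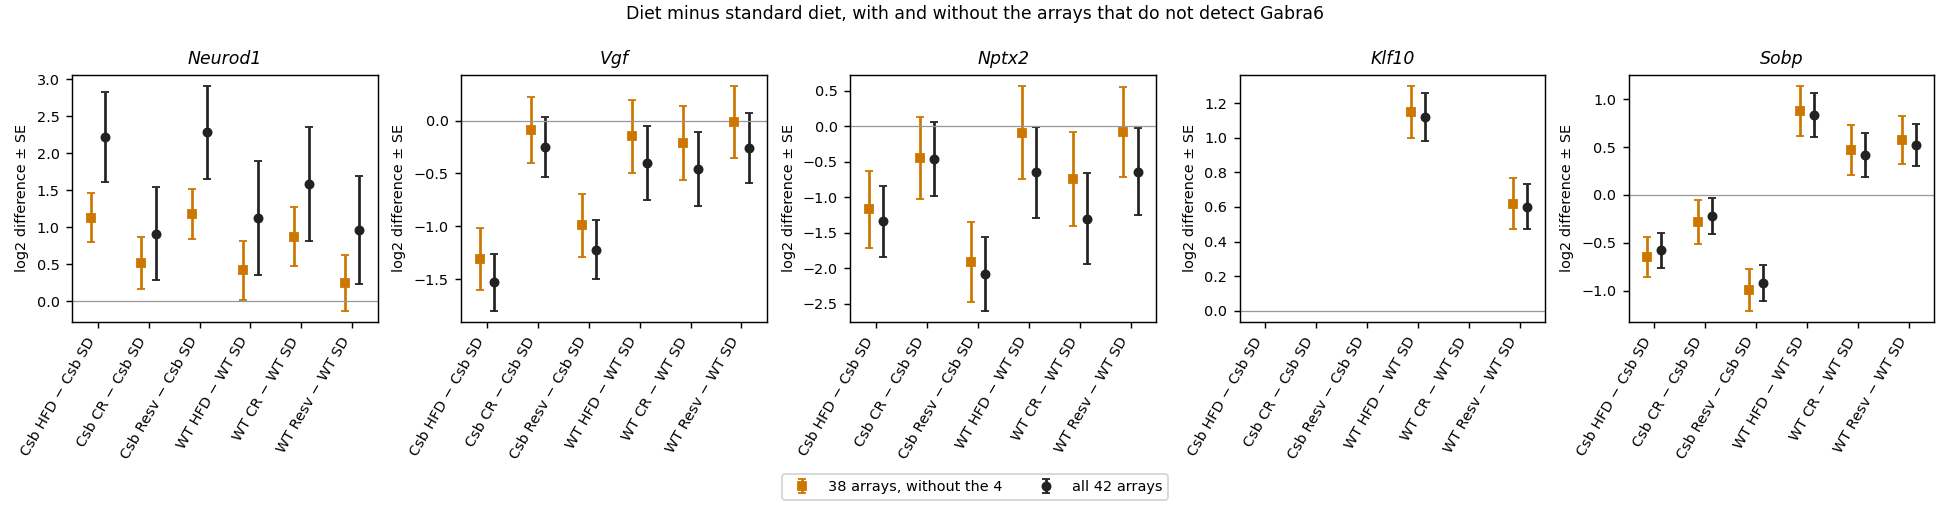
Log2 difference of each diet from the standard diet of the same genotype for the 5 members (points, with SE bars), from the 38 arrays that detect Gabra6 (squares) and from all 42 (circles). Klf10 has no point where both groups lie below background. The Csb HFD difference of Neurod1 is 1.13 without the 4 arrays and 2.22 with them, while that of Sobp is -0.65 without them and -0.58 with them.

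Across all probes, 17.1% passed an adjusted p of 0.05 for HFD against SD in Csb, 13.5% for Resv against SD in Csb and 0.0806% for HFD against SD in WT. These contrasts chose the members. In this fit Neurod1 ranked 3 by size of difference and Vgf 17 among the 2544 probes past the threshold for Csb HFD, and Sobp 1016, while Nptx2 lay outside it. For Csb Resv, Neurod1 ranked 2, Nptx2 6, Vgf 73 and Sobp 263 of 2009, and Klf10 ranked 1 of the 12 probes for WT HFD. Klf10 passed the detection filter only through the groups where it is high, WT HFD (3 of 4 arrays detected) and WT Resv (2 of 5). These ranks are description only. At the edge of the threshold lay, inside and outside, Rabep1 (-0.32) and Pabpc1 (0.32) for Csb HFD, Smc3 (0.44) and ILMN_1260593 (-0.25) for Csb Resv, and Gm5820 (0.60) and Zxda (1.11) for WT HFD. In the WT tests of Neurod1, Vgf and Nptx2 under CR and Resv, 0 of 6 passed, with 2 at an unadjusted p under 0.05. The share of all probes that passed in those contrasts was 2.18% (324 probes) for WT CR and 0 for WT Resv by limma. Of the 14883 probes, 2250 had an unadjusted p under 0.05 for WT CR and 1034 for WT Resv. For Csb CR against SD it was 0.0873%.

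Under caloric restriction, the only diet with no part in the choice of members, Csb mice were set against WT mice. Vgf averaged 10.99 ± 0.53 in Csb CR (SD, n = 6) and 10.18 ± 0.27 in WT CR (SD, n = 4), a difference of 0.80 (SE 0.32, adjusted p = 0.28), with 5 of 6 Csb arrays above all WT arrays. Nptx2 averaged 7.76 ± 1.03 in Csb CR and 6.41 ± 0.36 in WT CR, a difference of 1.35 (SE 0.58, adjusted p = 0.332). Neurod1 differed by -1.28 (SE 0.70, adjusted p = 0.452), by -0.57 without the 4 arrays, one of them Csb CR replicate 6, and by 0.74 with background as a covariate, where background averaged 86.2 in Csb CR and 67.2 in WT CR. Sobp differed by 0.35 (adjusted p = 0.498), and by 1.14 with background as a covariate. By limma 0 of these 4 members passed an adjusted p of 0.05, as 0.296% of all probes did. At an unadjusted p under 0.05 stood 2 of the 4 members and 1878 of the 14883 probes. On the other diets, whose arrays chose the members, the Csb minus WT differences of Neurod1, Vgf and Nptx2 were -0.61, 0.60 and 0.51 on SD, 0.48, -0.54 and -0.18 on HFD, and 0.71, -0.36 and -0.93 on Resv. Sobp differed by -0.42 on HFD and -0.44 on Resv, against 1.00 on SD. Its other well-detected probe, ILMN_2772728, differed by -0.06 (SE 0.2) on HFD and -0.29 (SE 0.2) on Resv, against 0.86 (SE 0.21) on SD. On that probe the HFD difference was thus smaller than its SE. With background as a covariate, Neurod1 differed by 0.79 on SD, and the member probe of Sobp by 0.38 on HFD and 0.11 on Resv. Over all probes 8.63% passed between genotypes on HFD, 18.4% on Resv and 13.8% on SD.

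Ordered by group mean, Neurod1 was highest in Csb Resv (10.62) and Csb HFD (10.57), followed by WT CR (10.53), WT HFD (10.09), WT Resv (9.91), Csb CR (9.26), WT SD (8.95) and Csb SD (8.34). Vgf ran from Csb SD (11.24) and Csb CR (10.99) down to Csb Resv (10.02) and Csb HFD (9.71), and Nptx2 from Csb SD (8.22) down to Csb Resv (6.14), with all 4 WT groups of each between these ends. Sobp ran from Csb SD (9.16) and WT HFD (8.99) down to Csb Resv (8.24) and WT SD (8.16). Neighbours in these orders differed by less than the larger of their 2 SDs, with 2 exceptions, both in Klf10, where WT HFD stood 0.52 above WT Resv and WT Resv 0.60 above WT SD.

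Within groups the members differed widely in spread. The within-group SD of Neurod1 was 1.14 and ranked 52 among 14883 probes, that of Nptx2 was 0.95 and ranked 102, and that of Vgf 0.51 and ranked 959, against a median of 0.25 over all probes. The spread of Neurod1 rests in part on the 4 arrays lacking Gabra6, without which its SD was 0.52 in Csb SD, 0.78 in Csb CR and 0.17 in WT SD, in place of 1.75, 1.85 and 1.43. Sobp had an SD of 0.339 and Klf10 of 0.191. In the injection arm the within-group SD was 0.838 for Vgf, 0.695 for Nptx2, 0.506 for Neurod1 and 0.225 for Sobp, beside a median of 0.251. Vgf, Nptx2 and Neurod1 thus varied more than most probes within groups in both arms.

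Deviations of the members from their group means were set against each other on the same arrays, which uses no difference between groups. In the diet arm Neurod1 and Vgf ran opposite (Pearson r = -0.522, adjusted p = 0.0237; Spearman rho = -0.601, adjusted p = 0.0013; permutation tests within groups, n = 42), and r was -0.501 without the 2 arrays farthest from the median. The 4 arrays that lack Gabra6 form a cluster of their own in Neurod1; on the other 38, r was -0.483 (adjusted p = 0.0423, permutation test). Vgf and Nptx2 ran together (r = 0.492, adjusted p = 0.0406; rho = 0.481, adjusted p = 0.0381; permutation tests, n = 42), with r = 0.464 without the 2 farthest arrays and r = 0.45 on the 38 arrays, where it no longer passed (adjusted p = 0.167, permutation test). For Neurod1 and Nptx2 r was -0.352 (adjusted p = 0.274, permutation test), and the other 7 of the 10 pairs had r between -0.0879 and 0.195.

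The same 2 pairs stood out in the injection arm, whose 29 arrays chose nothing. There Neurod1 and Vgf gave r = -0.668 (adjusted p = 0.00408; rho = -0.731, adjusted p = 0.00192; permutation tests, n = 29), and r = -0.692 without the 2 farthest arrays. Vgf and Nptx2 gave r = 0.781 (adjusted p = 0.00024; rho = 0.646, adjusted p = 0.00594; permutation tests) and r = 0.731 without the 2 farthest. Neurod1 and Nptx2 gave r = -0.511 (adjusted p = 0.0329), with rho = -0.377 (adjusted p = 0.123) by permutation tests. By Pearson r, 2 of 10 pairs passed in the diet arm and 3 of 6 in the injection arm. Nptx2 was not detected on 11 of the 29 arrays, where its levels have no firm order. The arrays of an arm share a normalization, and what else they share was not tested.

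**Figure D3:**
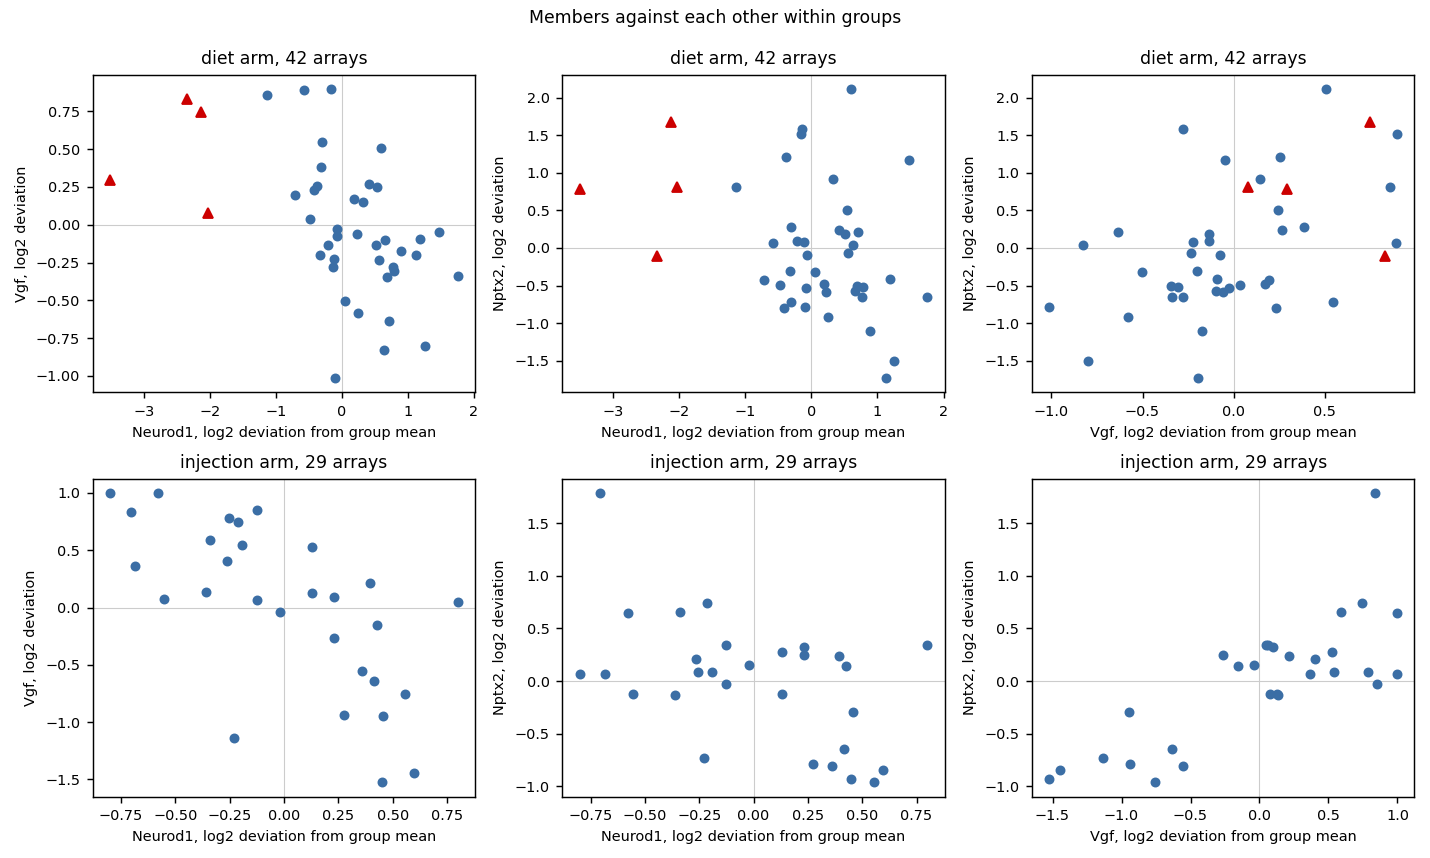
Deviation of each array from its group mean (log2) for 3 pairs of members, in the diet arm (top, 42 arrays, with the 4 arrays that lack Gabra6 as triangles) and in the injection arm (bottom, 29 arrays). Neurod1 runs opposite to Vgf (r = -0.522 and -0.668), and Vgf and Nptx2 run together (r = 0.492 and 0.781).

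The probes whose levels were most like each member over the 42 diet-arm arrays are given as description, with r over the 29 injection-arm arrays beside it. For Neurod1 they were Gabra6 (r = 0.977, 0.941 on the 38 arrays that detect it, and 0.75 in the injection arm) and Iltifb (r = 0.952, 0.835 and 0.75). For Nptx2 they were Kcnf1, a modulatory potassium channel subunit (r = 0.894 and 0.902), and Dlgap2, a postsynaptic scaffold protein (r = 0.892 and 0.809). For Vgf they were Wwc1 (r = 0.862 and 0.394) and Tmem179 (r = 0.861 and 0.913). For Klf10 they were Setd4 (r = 0.879) and Tdpoz2 (r = 0.831), with no value in the injection arm, where Klf10 was not kept. For Sobp the most like was its own probe ILMN_2772728 (r = 0.911 and 0.943), then Keap1, which directs the turnover of the stress factor NRF2 (r = 0.838 and 0.498). The diet-arm values include differences between groups and rest on arrays normalized together.

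The slope of each member on array background and brightness was fitted within groups, over all probes. On background, Neurod1 changed by -5.55 per doubling (SE 2.51, adjusted p = 0.177) and Sobp by -2.19 (SE 0.72, adjusted p = 0.0695), Klf10 by -0.73, Nptx2 by -0.26 and Vgf by 0.61. On brightness the slopes ran from -1.02 for Sobp (SE 0.53) to 1.9 for Nptx2 (SE 1.51), all with an adjusted p of 1. The slope of Klf10 was -0.8 (SE 0.3), with the lowest unadjusted p of the 5 members (0.0123, limma). By limma 0 of 5 members passed on either measure, while 3.72% of all probes passed on background and 0 on brightness, where 618 probes had an unadjusted p under 0.05. Within a group, background varied with an SD of 0.0707 in log2, much less than a doubling. With background as a covariate, the Neurod1 difference from Csb SD was 1.65 for Csb HFD and 1.17 for Csb Resv, in place of 2.22 and 2.28.

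**Figure D4:**
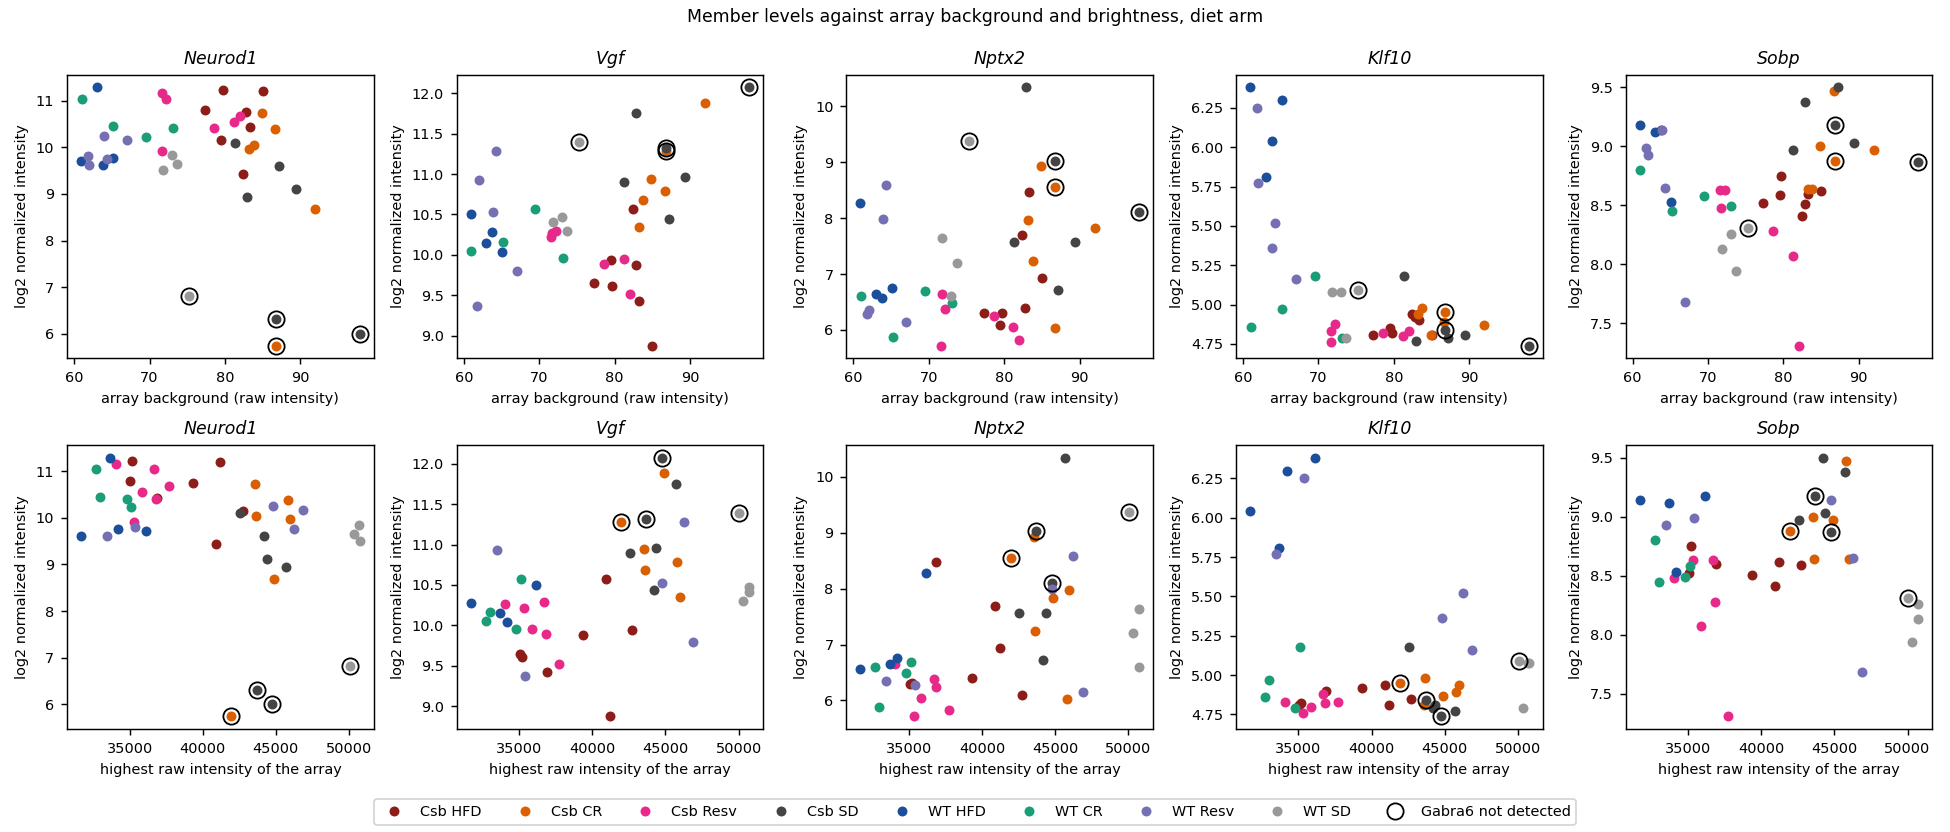
Log2 level of each member against array background (top) and array brightness (bottom, highest raw intensity) on the 42 diet-arm arrays, coloured by group, with a ring round the 4 arrays that lack Gabra6. In the Klf10 panels the 5 detected levels, 5.77 to 6.38, all come from WT HFD and WT Resv arrays.

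Lists of cell markers and pathways give the surroundings of these members. Granule cell genes (Gabra6, Neurod1, Cbln1 and Etv1, 4 of 4 kept) include Neurod1 itself, which was chosen on the Csb HFD contrast. Gabra6 rose by 2.61 (adjusted p = 0.0274) and Etv1 by 1.68 (adjusted p = 0.0117) for Csb HFD and by 2.69 and 1.56 for Csb Resv, by limma, while Cbln1 measured 1.25 and 1.12 without passing. The same arrays chose Neurod1, and Gabra6 followed Neurod1 over the diet arm (r = 0.977), so these passes are no separate support for its difference. The list's median, Neurod1 included, was 1.95 for Csb HFD, against 0.01 over all probes, and 1.92 for Csb Resv, against 0. Without the 4 arrays, which were set apart by Gabra6 itself, Gabra6 still rose, by 1.17 and 1.25, Etv1 no longer passed, and the medians were 1.04 and 1.00. In WT HFD 0 of 4 passed (median 1.08, or 0.24 without the WT array that lacks Gabra6). The share of all probes that passed was 0.0806% for WT HFD, against 17.1% for Csb HFD and 13.5% for Csb Resv. The Purkinje marker Pcp2 measured 2 for Csb HFD, 1.96 for Csb Resv and 2.41 for WT HFD, without passing, and 0.41, 0.37 and 0.53 without the 4 arrays. Choroid plexus genes (Ttr, Folr1 and Kl) had medians of 1.65, 2.17 and 0.78 in these 3 contrasts, and 1.24, 1.94 and -0.07 without the 4 arrays. Folr1 rose by 2.17 for Csb Resv (adjusted p = 0.0259, limma), and measured 1.97 without the 4 arrays, where it did not pass (adjusted p = 0.0565). The mean level of these 3 genes ranged from 6.48 to 11.75 in Csb HFD, 10.08 to 11.19 in Csb Resv and 6.37 to 10.75 in Csb SD. Their part in the Neurod1, Vgf and Nptx2 differences was not tested.

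Immediate early genes, which like Vgf and Nptx2 are induced by neuronal activity, had 7 of 10 members kept, and Nr4a1, Btg2 and Ier2 were never detected. Fosb fell by 1.09 for Csb HFD (adjusted p = 0.0399, limma) and was the only one to pass, a call lost without the 4 arrays (adjusted p = 0.0888), and the list's medians were -0.66 for Csb HFD, -0.72 for Csb Resv and -0.33 for WT HFD, and -0.53, -0.54 and 0.30 without the 4 arrays. Arc measured -0.72 and Junb -0.79 for Csb HFD, without passing. Of the 7 NAD and sirtuin genes 2 rose, Nampt (0.57 for Csb HFD and 0.55 for Csb Resv), which makes the NAD+ precursor NMN, and Nmnat2 (0.56 and 0.65), an axonal NAD+ synthase; the list's medians were -0.01 and 0.05. The share of all probes that passed, in either direction, was 17.1% and 13.5% in these 2 contrasts. Of 11 clock genes kept, Per1 fell by 0.66 for Csb HFD (adjusted p = 0.0338), a call lost without the 4 arrays, with list medians of 0.09, 0.03 and 0.31 for Csb HFD, Csb Resv and WT HFD. Of 8 ketone and fatty acid genes kept, 0 passed in these 3 contrasts (medians -0.01, 0 and -0.18), although Acat1 rose by 0.78 for WT CR (adjusted p = 0.00126, limma). For Csb CR against SD 1 of the 8 rose and 1 fell, or 1 and 0 without the 4 arrays. Over all probes 2.18% passed for WT CR, 0.0873% for Csb CR and 0.0806% for WT HFD.

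Of the other cell types, Slc1a3, a glial glutamate transporter, rose by 0.55 for Csb HFD among 4 Bergmann glia and astrocyte genes (medians 0.47, 0.55 and 0.28 for Csb HFD, Csb Resv and WT HFD), and none of the 4 passed without the 4 arrays. Col1a2, a collagen of meninges, rose by 0.78 for Csb HFD and 0.70 for Csb Resv, with and without the 4 arrays, as 1 of 2 meningeal genes (medians 0.56, 0.50 and 0.24). Oligodendrocyte genes (3 kept; medians 0.12, 0.06 and -0.05), microglial genes (3 kept; 0.15, 0.11 and -0.32), blood genes (2 kept; -0.13, 0.28 and -0.26), endothelial genes (2 kept; -0.19, -0.14 and 0.04) and 1 pituitary gene (-0.46, -0.53 and 0.95) had 0 passing in these 3 contrasts. Of all probes 17.1%, 13.5% and 0.0806% passed in them.

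In the injection arm the members were tested in 12 comparisons, 48 tests in all, by limma over 13948 probes. Depending on the comparison, 81 to 4173 of these probes had an unadjusted p under 0.05. Sobp fell in old against young Csb mice given saline, the only 1 of 48 to pass, with 6 at an unadjusted p under 0.05. Its levels were 7.68, 7.64 and 7.39 in old, against 8.26, 8.45 and 8.29 in young Csb saline mice, which do not overlap, and the difference was -0.77 (SE 0.18, adjusted p = 0.0292), where 3.28% of all probes passed. The other Sobp probe, ILMN_2772728, differed by -0.85. The call was lost without any one of 4 of the 6 arrays (Csb old saline replicates 2 and 3, Csb young saline replicates 2 and 3; adjusted p of 0.0548, 0.138, 0.14 and 0.0967), while the difference stayed between -0.82 and -0.68 over the 6 fits. Brightness averaged 35643 in these old mice, against 39918 in the young, and the call was lost with brightness as a covariate (adjusted p = 0.142), with background as one (adjusted p = 0.106) and on the deposited scores (adjusted p = 0.0537). In the other age comparisons, where the call was not made, Sobp differed by -0.46 in Csb NR (adjusted p = 0.999), -0.40 in WT NR (adjusted p = 0.0736) and -0.50 in WT saline (adjusted p = 0.154), and 0.0143%, 14.2% and 1.3% of all probes passed. The interaction of age and genotype for Sobp was -0.27 in saline (SE 0.25) and -0.05 in NR mice (SE 0.23), without passing. No member passed in any interaction of age, genotype and NR, where the share of all probes was 0.0358% for age by genotype in saline, 0.0358% for NR by genotype in old mice, 0.043% for NR by age in WT mice and 0 in the other 3 by limma (288, 1303 and 609 at an unadjusted p under 0.05 for NR by genotype in young mice, age by genotype under NR and NR by age in Csb mice).

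Nptx2 was detected on 3 of 3 Csb old saline arrays and 0 of 3 Csb young saline arrays, at 6.6 ± 0.22 and 5.44 ± 0.26 (SD, n = 3 each). It was at least 1.74-fold higher in the old, with a fitted difference of 1.16 (SE 0.52, adjusted p = 0.187, limma), which did not pass. After NR, Nptx2 averaged 5.61 ± 0.45 in Csb old mice (SD, n = 4), -0.99 from Csb old saline (SE 0.49, adjusted p = 0.47), with no overlap. Vgf in the same groups averaged 9.42 ± 0.44 and 10.06 ± 0.23, a difference of -0.65 (adjusted p = 0.695), again without overlap. Sobp was 0.28 higher in Csb old NR than in Csb old saline mice (adjusted p = 0.558), with 4 of 4 arrays above all saline arrays. How many of all probes separate in this way between such small groups was not counted, so the lack of overlap is description only. No member passed for NR against saline, where 0.0717% of probes passed in WT old mice and 0 in the other 3 strata (1486, 81 and 903 at an unadjusted p under 0.05 in Csb old, Csb young and WT young mice, by limma).

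Neurod1 kept to a narrow range of group means in the injection arm, between 7.86 in WT young NR and 8.34 in WT old saline, and Klf10 was detected on 0 of 29 arrays. Vgf group means ran from 9.16 in WT young saline to 10.06 in Csb old saline. Between genotypes the largest differences were 0.81 for Nptx2 (adjusted p = 0.542) and 0.54 for Vgf (adjusted p = 0.74), both in old saline mice. Without WT old saline replicate 3 they were 0.34 and -0.22, so that the Vgf difference changed sign with that array. No member passed there, where 0.229% of all probes did, nor in the other genotype comparisons, with 0.0143% (young NR), 0.0502% (young saline) and 0.0574% (old NR). Levels of the 2 arms come from separate normalizations and were not compared.

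**Figure D5:**
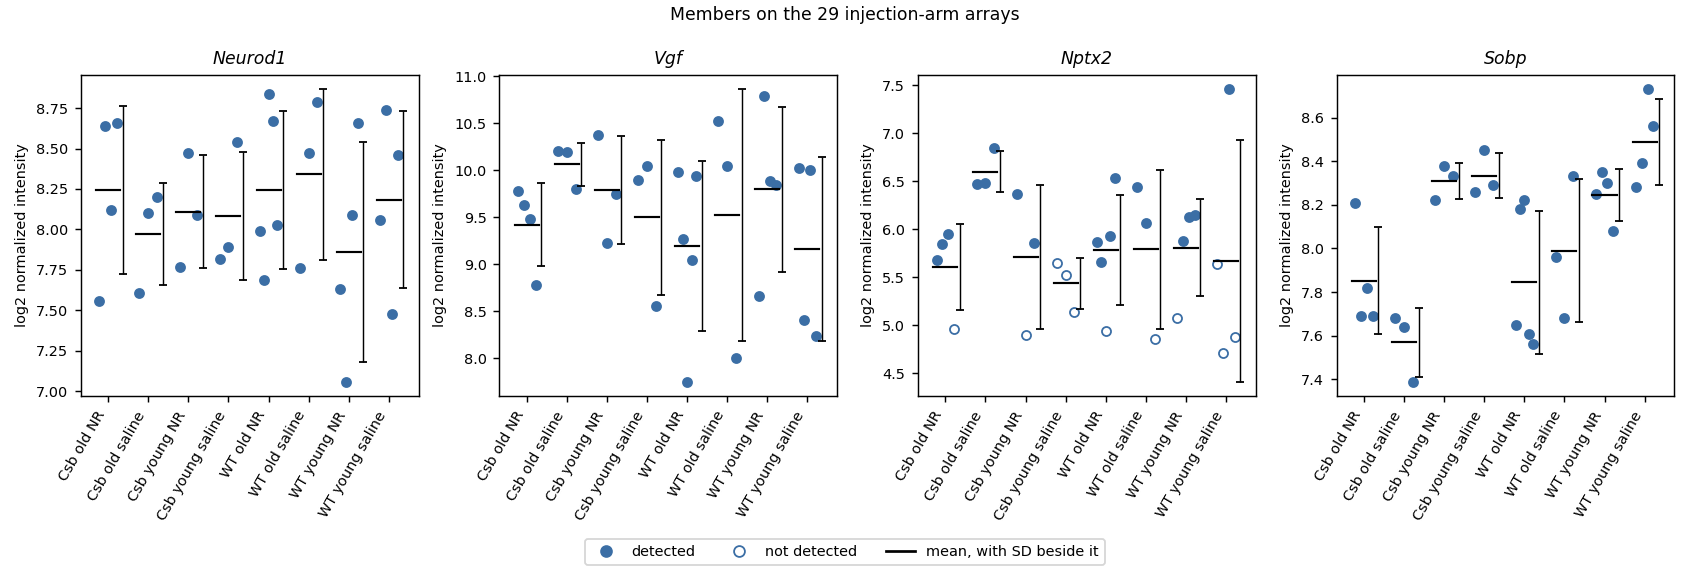
Log2 normalized intensity of the 4 members kept in the injection arm on its 29 arrays, with Csb groups left of WT groups and, within each, NR left of saline. Filled points are detected and open points not detected, and the line and bar are mean and SD; the 3 Csb old saline arrays of Sobp, 7.39 to 7.68, lie below the 3 Csb young saline arrays, 8.26 to 8.45.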

How the data were processed

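Average probe intensities and detection p-values of 71 bead arrays were deposited, and per the file headers the intensities are not normalized and each detection p-value belongs to the intensity beside it. The submitters' processing notes name GenomeStudio 1.9.0, and later steps are not given in the sources at hand. The authors also deposited a processed score per probe, which equalled the z-score of the log intensity within each array on all 71 arrays (largest difference 5e-10), and it served as an alternative. Probes were named through the array's platform annotation (23978 of 25697 have 1 symbol and 1719 are not listed), with coordinates and promoters from RefSeq.

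In R 4.3.3 with limma 3.58.1, each arm was background-corrected with the detection p-values (neqc, offset 16), quantile-normalized, put on the log2 scale and filtered (14883 probes kept for diet, 13948 for injection). Group means of all 8 groups of an arm were fitted with lmFit and eBayes, and p-values were adjusted over all kept probes (Benjamini-Hochberg, two-sided, threshold 0.05). Member pairs used 1e+05 permutations within groups. The steps were tested on simulated data. No 2 arrays were identical (highest correlation 0.996). The number of arrays limits the precision. The share of all probes whose groups do not overlap was not counted, so overlap of groups is given as description. Alternatives were other background corrections, normalizations, filters, array weights, covariates, a replicate block and leaving out arrays.

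The members and the gene lists were chosen with earlier results of these data known. Named besides the members are the 2 probes most like each, the probes at the edge of each choosing threshold, and genes of the lists; for a list gene with several probes the brightest was used. The setting without the arrays that lack Gabra6 was chosen after seeing the data. The files give no chip or scan date, so no batch could be entered.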

Additional observations from a re-analysis of the deposited data

Results flagged for a closer look

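Of 56 sets of member levels in groups of 4 to 10 arrays, 7 held an array that stood far from the rest by Dixon's test, which chance does in about 1 in 20. WT SD replicate 1, the WT array that lacks Gabra6, gave a pair of them, with Neurod1 at 6.82, where the other arrays lay between 9.51 and 9.84, and Vgf at 11.39, where the others lay between 10.3 and 10.47. In WT HFD mice, Neurod1 stood at 11.28 on replicate 2 (others 9.61 to 9.76), Nptx2 at 8.28 on replicate 1 (others 6.57 to 6.75) and Sobp at 8.53 on replicate 4 (others 9.12 to 9.18), which are 3 different arrays. Undetected levels of Klf10 gave the other 2, at 5.18 on Csb SD replicate 5 (others 4.74 to 4.84) and at 4.79 on WT SD replicate 3 (others 5.08 to 5.09).

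Sobp differed in opposite directions with high-fat feeding in the 2 genotypes. Relative to the mean of the standard diet of the same genotype, the Csb HFD arrays lay between -0.74 and -0.40 and the WT HFD arrays between 0.37 and 1.02, and the 2 differences lay -1.42 apart (Csb minus WT). This difference was not tested, since its arrays overlap with those that chose the probe.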

How the results depend on the processing

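Across the member differences given here, 450 of 477 values under the planned settings stayed on their side of the threshold and, where untested, within the spread between arrays, while 14 moved by more than that spread, 3 lost a call, 4 gained one and 6 tested differences, none of them called, changed sign. With background as a covariate Neurod1 was 0.74 for Csb CR against WT CR, -0.07 for WT HFD and -0.17 for WT Resv; with brightness Nptx2 was 0.44 for WT HFD; and with array weights Nptx2 was 0.18 and Vgf 0.17 for WT Resv. Of the untested values 7 changed sign as well. With 1 array left out, Vgf between genotypes in old saline mice ranged from -0.22 to 1.04. A further 38 injection-arm differences, none called and not given one by one, changed sign under 88 of 622 settings. The causes of these changes were not tested. The choosing direction of 4 of 4 members held under every setting, and without any 1 array it held for 4 as well. The arrays of these contrasts chose the members, so a kept sign was close to given and is no support for the differences. The 12 tests planned in the other genotype (of which those of WT HFD and of Klf10 are not reported), those between genotypes under CR and those of slopes made 0 calls under every setting, leave-one-out included (for slopes, leaving out each group). The injection arm made 1 call, against 2 with only the compared groups fitted, 4 with array weights, 0 with background or brightness as a covariate and 0 on the deposited scores, and 0 to 2 with 1 array left out. The calls gained were Sobp with age in WT NR (adjusted p = 0.00525), WT saline (0.00332) and Csb NR (0.0362) with array weights, and Nptx2 in Csb old against young saline (0.0377) with only the compared groups; Sobp with age in WT NR also passed without WT old NR replicate 2 (0.0432) or 3 (0.0345). Of the diet-arm pairs, 1 passed without the 4 arrays lacking Gabra6, against 2 with them.

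The replicate block changed no member call (0, 0 and 1). Arrays with the same number shared little beyond it (mean correlation 0.008 in the diet arm and 0.035 in the injection arm, and 4 of 42 and 10 of 29 arrays correlated best with their own number), so the numbers were not taken as pairs. Under the block 1930 probes passed for Csb HFD against SD, 1935 for Csb Resv, 9 for WT HFD and 296 for WT CR.

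Counts over all probes moved by more. Csb HFD against SD gave 2544 probes, with 965 (brightness as a covariate) to 2771 (array weights) under the alternatives and 1326 without the 4 arrays; Csb Resv gave 2009, with 279 to 2428; WT HFD gave 12, with 0 to 500; WT CR gave 324, with 45 to 1106; Csb CR 13, with 2 to 84; and the genotypes under CR 44, with 5 to 411. The genotypes on SD gave 2054, with 408 to 3712, on HFD 1285, with 323 to 3957, and on Resv 2737, with 650 to 5355. In the injection arm, age in Csb saline gave 458, with 52 to 2818, in WT NR 1978, with 5.41% of that number to 3361, and in WT saline 181, with 25 to 2159. Its other comparisons gave 0 to 32, with at most 1236 (genotype in old NR mice, array weights). The causes of these shifts were not tested. Klf10 lies at the detection limit, where fitted differences are not bounds.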
